A study of Mus musculus with 36 samples.

Results

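The data concerned 9 mouse genes that encode the corepressor machinery recruited by KRAB zinc finger proteins, Trim28, Setdb1, Cbx1, Cbx3, Cbx5, Atf7ip, Morc3, Smarcad1 and Chd4. They were taken by symbol from the 21442 genes in the table, and all 9 were present and passed the filter on low counts in every comparison. Read counts per gene came from 36 messenger RNA libraries in 12 groups of 3, made up of 6 stages in Zfp266 knockout (KO) and wild-type (WT) cells. The stages were mouse embryonic fibroblasts (MEFs), days 3, 5 and 7 of reprogramming (D3, D5 and D7), induced pluripotent stem cell (iPS) clones and embryonic stem cells (ESCs). Zfp266 encodes a predicted KRAB zinc finger protein, and the study asked how its loss alters the reprogramming of MEFs into iPS cells.

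MEFs, given as strain 129, came from chimeric E12.5 embryos. These were made by morula aggregation of ESCs of 129 background with host embryos from B6CBAF1 females. The ESC-derived cells carried Cas9 under the EF1α promoter at Rosa26 and a doxycycline-inducible cassette for Oct4, Sox2, Klf4 and Myc. The MEFs received by lentivirus either a control guide RNA with no target (WT) or a Zfp266 guide RNA (KO), and were collected 96 hours later without induction. The study describes no sorting of the MEF libraries, so host cells without Cas9 or cassette could remain in them. For D3, D5 and D7 such MEFs were mixed with MEFs that lack the cassette, transduced in the same way and given 300 ng/ml doxycycline, which switches the cassette on, and 10 µg/ml ascorbic acid, and cells that expressed the cassette were sorted for RNA. A KO library of these 4 stages was therefore a population of edited cells in which unedited cells could remain. The iPS groups were 3 WT and 3 KO clones that were sorted on day 15 by a Nanog reporter, grown from single cells without doxycycline and selected with 1 µg/ml puromycin. The KO ESCs were clones of 1 parental line (Clone J, which carries the same Cas9 gene), made with a guide plasmid. The methods of the study do not say how many clones gave the 3 KO ESC libraries. Nor do they name the line of the 3 WT ESC libraries. Nothing in the labels says whether MEF, D3, D5 or D7 replicates were separate embryos or cultures, and p-values then measure only the spread between these libraries.

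KRAB zinc finger proteins bind DNA at chosen sequences, many of them in transposable elements, and recruit the scaffold protein TRIM28 through the KRAB domain. TRIM28, also called KAP1, brings in the histone H3K9 methyltransferase SETDB1, which works with its partner ATF7IP, together with heterochromatin protein 1 (HP1) proteins that bind methylated H3K9 and with the CHD4-containing NuRD complex, which remodels nucleosomes and deacetylates histones. The HP1 proteins alpha, beta and gamma are encoded by Cbx5, Cbx1 and Cbx3, while MORC3, an ATPase, and SMARCAD1, a chromatin remodeller, also act in silencing of such elements. In ESCs this machinery is known for the repression of endogenous retroviruses.

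Total counts ranged from 19224103 to 39610939 per library. The summed normalised counts of 10 fibroblast markers were 642651 to 700917 in the 6 MEF libraries, and those of 10 pluripotency markers were 62.1 to 93.2 in MEFs and 117878 to 154065 in iPS and ESC libraries, so the labels of these stages matched their markers. Zfp266 transcripts were present in all libraries, at 1266 to 3293 normalised counts. KO libraries lay below WT libraries in iPS cells (1892 to 2212 against 2529 to 2817) and in ESCs (1969 to 2222 against 2238 to 2445). At D3 they lay above (1824 to 2050 against 1417 to 1598), and the other stages overlapped. Editing by a guide RNA need not lower a transcript, so its level is no check of the knockout at the protein. MEF KO replicate 3 stood apart from the other MEF KO libraries. Its counts differed from theirs by 99.2 and 103 times the counting variance, while those libraries differed from each other by 4.38 times. D7 WT replicate 1 (44.0 and 42.3 times, against 6.02 between the others) and D3 WT replicate 2 (47.6 and 38.0 times, against 8.52) stood apart in the same way, and without each of these 3 libraries the number of the 9 genes called between KO and WT stayed at 0 in MEFs, 0 at D3 and 7 at D7.

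To show the sequences in front of genes that rose at D7 and a gene that was not called there, 240 bases of the RefSeq promoter windows (GRCm38.p6) are given for Trim28, Cbx1 and Chd4, ending 10 bases before the RefSeq start. They run 5′ to 3′ in the direction of the gene, and capitals mark GGGCGG or its reverse complement, the GC box bound by SP family factors.
Trim28, chr7:13023902-13024141, + strand: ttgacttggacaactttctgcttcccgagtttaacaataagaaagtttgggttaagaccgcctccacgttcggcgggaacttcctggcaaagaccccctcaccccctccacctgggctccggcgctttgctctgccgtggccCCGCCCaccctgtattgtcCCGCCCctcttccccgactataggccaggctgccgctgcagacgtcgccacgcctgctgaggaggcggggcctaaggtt
Cbx1, chr11:96788885-96789124, + strand: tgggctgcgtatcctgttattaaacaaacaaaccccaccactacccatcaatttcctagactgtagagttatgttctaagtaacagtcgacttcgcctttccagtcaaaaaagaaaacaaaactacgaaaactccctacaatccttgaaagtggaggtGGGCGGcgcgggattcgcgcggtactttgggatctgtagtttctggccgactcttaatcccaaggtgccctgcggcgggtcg
Chd4, chr6:125095731-125095970, + strand: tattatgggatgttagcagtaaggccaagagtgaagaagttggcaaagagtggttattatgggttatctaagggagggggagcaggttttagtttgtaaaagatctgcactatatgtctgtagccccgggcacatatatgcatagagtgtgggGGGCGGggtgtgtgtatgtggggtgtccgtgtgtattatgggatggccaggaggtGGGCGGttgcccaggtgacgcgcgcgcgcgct

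Trim28 and Chd4 each held 2 such GC boxes in the bases shown, and Cbx1 held 1. In full windows of 300 bases, the GC box was in at least 1 window of 8 of the 9 genes (10 of 13 windows, as Cbx3, Smarcad1, Chd4 and Cbx5 each have more than 1), and in 35.7% of all 32851 windows. CCAAT was found in 6 genes (37.4% of all windows), the E-box CACGTG in Cbx5 alone (7.15%), the ETS motif CCGGAAG in Setdb1 alone (8.86%), and the octamer ATGCAAAT, the letters bound by OCT factors, in Atf7ip alone (1.74%). The NRF1 motif (GCGCATG followed by CGC) was in none of them (0.971%). Both strands were searched, and these matches are descriptions of letters in the windows. The windows of the 9 genes held 8 to 34 CG dinucleotides, against a median of 7 over all windows.

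The Trim28 window lies inside the gene as GENCODE M21 annotates it, which begins further upstream, and overlaps none of its exons in the bases shown. The genes covered a wide range of levels. Per kb of merged exons, Trim28 was highest in WT MEFs at 3189.9 ± 59.2 normalised counts per kb (SD, n = 3), followed by Chd4 (2636 ± 46.4), Cbx3 (993 ± 13.6) and Cbx5 (882 ± 30.9). Atf7ip (196 ± 3.69) and Smarcad1 (124 ± 4.79) were lowest, and the libraries of neighbouring genes in this order did not overlap in WT MEFs. In WT ESCs, Trim28 was again first, at 13862 ± 791 per kb, which was above 98.9% of genes. Cbx1 (2783 ± 146) came next, ahead of Chd4 (2036 ± 239), and only Cbx3 and Cbx5 overlapped among neighbours. The lengths of merged exons and of the longest transcript differ most for Atf7ip (20726 and 8059 bases) and Smarcad1 (13322 and 5168 bases), and with the longest transcript Morc3 (314 ± 9.81) and Setdb1 (316 ± 6.66) were lowest in WT MEFs, with Smarcad1 (319 ± 12.3) seventh and Atf7ip (505 ± 9.48) sixth.

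**Figure D1:**
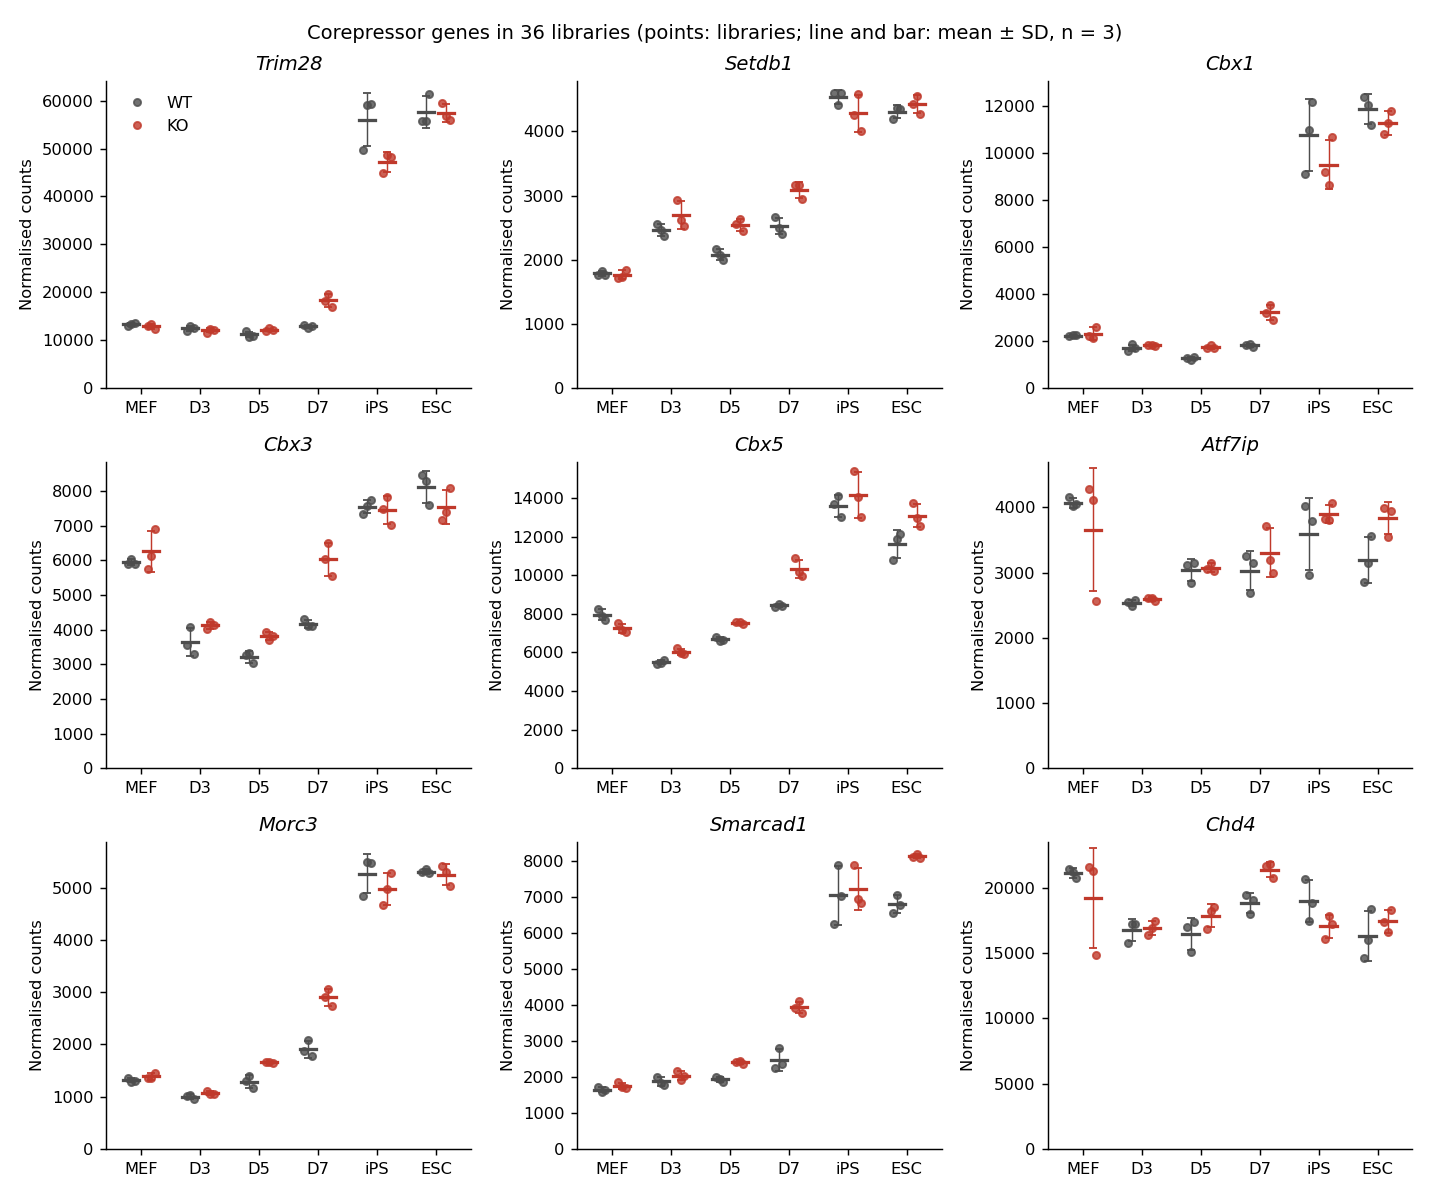
Normalised counts (linear axis from 0) of the 9 genes in all 36 libraries, by stage, with WT in grey and KO in red; points are libraries, and the line and bar are the mean ± SD of 3. Trim28, Cbx1, Morc3 and Smarcad1 were several times higher in iPS cells and ESCs than in MEFs, and at D7 all KO libraries lay above all WT libraries in every gene except Atf7ip.

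Between WT MEFs and WT ESCs, 7 of the 9 genes were higher and 2 lower in ESCs at FDR < 0.05 (DESeq2), where 79.3% of 21436 genes tested were called, 40.0% higher and 39.4% lower. The median log2FC was 1.27 over the 9 genes and 0.052 over all genes tested. Cbx1 (log2FC 2.41), Trim28 (2.12), Smarcad1 (2.04), Morc3 (2.02) and Setdb1 (1.27) also passed the fold threshold of the study, log2FC > |1|, which 55.4% of genes passed. Chd4 and Atf7ip were the lower genes, with log2FC -0.37 and -0.35. The call of Atf7ip was lost with edgeR (FDR 0.0664), with TMM size factors (FDR 0.0704) and without ESC WT replicate 1 (FDR 0.068). TMM factors shifted all log2FC of this comparison by 0.11, and the other 8 calls did not depend on that shift.

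Trim28, the scaffold, had 13000.2, 13303 and 13488 normalised counts in the WT MEF libraries and stayed near that level during reprogramming, with 13145, 12572 and 12844 in WT cells at D7. The WT iPS clones had 49733, 59129 and 59343, and the WT ESC libraries had 55736, 55746 and 61436. No library of the early stages came near the iPS and ESC libraries. The step from D7 to iPS cells in WT was 4.36-fold (log2FC 2.12, SE 0.063, FDR 1.97e-245), and between WT iPS cells and ESCs Trim28 was not called (log2FC 0.040, SE 0.063, FDR 0.782).

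Cbx1, which encodes HP1 beta, had the widest range of the 9 genes, 9.37-fold between the highest and the lowest group mean. It dipped before it rose. The WT libraries had 2195, 2257 and 2252 normalised counts in MEFs and 1273, 1211 and 1325 at D5. The WT ESC libraries had 12411, 12066 and 11199. Every D5 library lay below every MEF library, and the fall was called from MEFs to D3 (log2FC -0.38) and again from D3 to D5 (-0.43), while D7 was above D5 (0.52) and iPS cells above D7 (2.56, FDR 8.69e-159).

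From WT MEFs to D3, 2 of the 9 genes were higher and 6 lower, where 70.9% of genes were called, 33.8% higher and 37.1% lower. Setdb1 (log2FC 0.46) and Smarcad1 (0.18) rose, whereas Cbx3, Atf7ip, Cbx5, Morc3, Cbx1 and Chd4 fell, by 0.71 for Cbx3 to 0.33 for Chd4 on the log2 scale. Setdb1 libraries went from 1767, 1831 and 1765 normalised counts in WT MEFs to 2549.9, 2464 and 2376 at D3, with no overlap. The call of Smarcad1 was lost without D3 WT replicate 1 (FDR 0.199), MEF WT replicate 2 (FDR 0.133) or MEF WT replicate 3 (FDR 0.082). These libraries hold RNA of mixed cells, in which a change in the share of a cell type and a change of RNA per cell cannot be told apart.

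From D3 to D5 in WT cells, Cbx5 (0.28) and Morc3 (0.37) rose and Setdb1 (-0.25) and Cbx1 fell, while 25.1% of genes were called, 12.4% higher and 12.7% lower. Trim28 (log2FC -0.15, SE 0.064, FDR 0.059) was called without D3 WT replicate 1 (FDR 0.0474) or D5 WT replicate 1 (FDR 0.0231), and Cbx3 (log2FC -0.18, SE 0.075, FDR 0.0623) without D3 WT replicate 3 (FDR 0.0117). Atf7ip (log2FC 0.26, SE 0.13, FDR 0.136) was called with these groups alone (log2FC 0.27, FDR 5.87e-04). From D5 to D7, 7 of 9 rose and none fell (24.1% of genes were called, and 13.5% were higher), with Morc3 (0.57) and Cbx1 changing most. Chd4 (log2FC 0.19, SE 0.10, FDR 0.157) and Atf7ip (log2FC -0.0038, SE 0.13, FDR 0.999) were not called, though Chd4 was with these groups alone (FDR 0.0284). The call of Trim28 in this step (log2FC 0.20, FDR 0.0101) was lost without D5 WT replicate 2 (FDR 0.0662), D5 WT replicate 3 (FDR 0.0506) or D7 WT replicate 1 (FDR 0.0552).

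From D7 to iPS cells in WT, the same number, 7 of 9, rose, at a share of 73.5% of all genes called and 35.8% higher. Cbx1, Trim28, Smarcad1 (1.51) and Morc3 (1.46) passed the fold threshold, as did 45.0% of genes. Chd4 was level in this step, with 19495, 17971 and 19074 normalised counts in the WT D7 libraries and 20702, 17478 and 18842 in the WT iPS clones, which overlap (log2FC 0.012, SE 0.10, FDR 0.92, 95% interval -0.18 to 0.21). Atf7ip, the other gene not called (log2FC 0.25, SE 0.13, FDR 0.0749), was called without iPS WT replicate 2 (FDR 0.00967), with edgeR (FDR 0.0337) and with TMM size factors (FDR 0.0336). Over all 12 groups the mean of Chd4, the NuRD remodeller, varied by 1.31-fold and that of Atf7ip by 1.60-fold. Between WT iPS cells and ESCs 1 of the 9 was called, Cbx5, lower in ESCs (log2FC -0.23, SE 0.053, FDR 0.00332; 3.2% of genes were called, and 2.11% were lower). This call was lost when these groups were fitted alone (FDR 0.652), without ESC WT replicate 1 (FDR 0.0995) and without iPS WT replicate 1 (FDR 0.053). Successive steps share the libraries of the stage between them.

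To ask whether the machinery differed between KO and WT cells, the genotypes were compared at each stage. In MEFs none of the 9 genes was called by DESeq2, 1 had an unadjusted p under 0.05 (Cbx5, log2FC -0.13), and edgeR also called none; 0.0428% of 21020 genes were called. At D3 none was called by either tool and 3 had an unadjusted p under 0.05, with 0.493% of genes called. Both percentages are at FDR < 0.05, and the share of all genes with an unadjusted p under 0.05 was not computed. The log2FC ranged from -0.16 (Atf7ip) to 0.091 (Smarcad1) in MEFs and from -0.050 (Trim28) to 0.18 (Cbx3) at D3. The lower ends in MEFs leaned on 1 library. Atf7ip had 4281, 4111 and 2571 normalised counts in the KO MEF libraries and Chd4 had 21604, 21326 and 14826, with replicate 3 lowest in both and far below the other libraries, and without it the log2FC were 0.043 and 0.022.

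**Figure D2:**
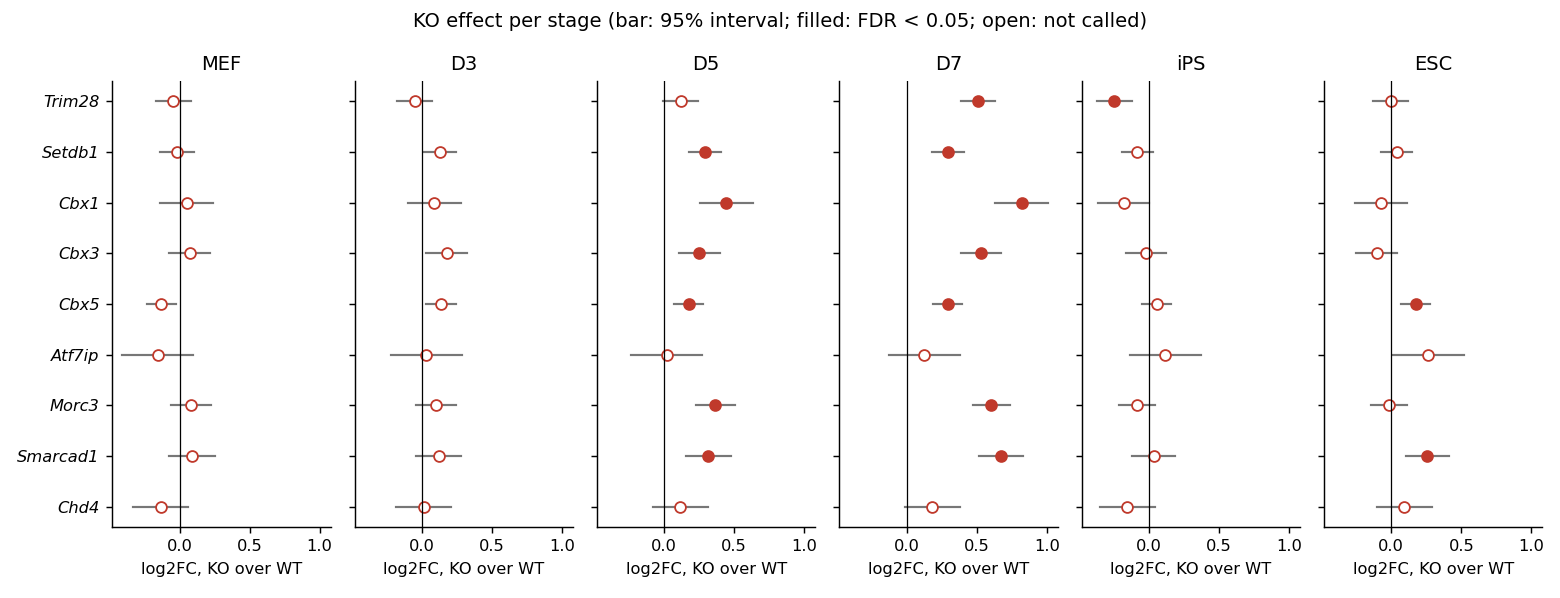
DESeq2 log2FC of KO over WT (x axis) for each gene (y axis) in the 6 stages; bars are 95% intervals, filled points were called at FDR < 0.05 and open points were not. The filled points are at D5 (6 genes) and D7 (7 genes), all to the right of 0, with Trim28 alone to the left in iPS cells and Cbx5 and Smarcad1 to the right in ESCs.

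At D5, 6 of the 9 genes were higher in KO cells and none was lower, where 7.15% of 17694 genes were called and 4.72% were higher. The median log2FC of the 9 was 0.25, against -0.012 over all genes tested. KO and WT libraries did not overlap in 7 of the 9, while 32.3% of all genes did not overlap. Cbx1 (log2FC 0.44), Morc3 (0.36), Smarcad1 (0.32), Setdb1 (0.29), Cbx3 (0.25) and Cbx5 (0.17) were called. Trim28 was not (log2FC 0.12, SE 0.064, FDR 0.315), although its KO libraries (11899, 12452 and 12053) all lay above its WT libraries (11859, 10743 and 10946). Cbx3 and Cbx5 were no longer called with edgeR (FDR 0.0505 and 0.0589) or without D5 KO replicate 1 (DESeq2 FDR 0.095 and 0.0818), D5 KO replicate 3 (0.0593 and 0.0604) or D5 WT replicate 3 (0.156 and 0.102). Cbx5 was also lost without D5 KO replicate 2 (0.103) and without D5 WT replicate 2 (0.0976).

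At D7, 7 of the 9 genes were higher in KO cells and none was lower. Of 21020 genes tested, 29.4% were called, and 13.3% were called higher. The median log2FC of the 9 was 0.51, against -0.045 over all genes tested. Libraries did not overlap in 8 of the 9, against 47.4% of all genes, and none of the 9 passed log2FC > |1|, which 8.37% of genes did. These 7 calls held in every alternative fit that was run, including each fit without 1 library.

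Trim28 had 18199, 19677 and 17004 normalised counts in the KO libraries at D7 and 13145, 12572 and 12844 in the WT libraries. All KO libraries were above all WT libraries, by 1.42-fold (log2FC 0.51, SE 0.063, FDR 8.43e-14). Setdb1, the methyltransferase, had 3168, 3159 and 2942 in KO and 2660.5, 2497 and 2407 in WT libraries. All KO libraries were above all WT libraries (log2FC 0.29, SE 0.058, FDR 6.10e-06), with a log2FC of 0.29 at D5. Its partner Atf7ip, with 3720.2, 3199 and 3000.2 in KO and 3255, 2690.5 and 3140.1 in WT libraries, overlapped between genotypes (log2FC 0.13, SE 0.13, FDR 0.514, 95% interval -0.13 to 0.38). Setdb1 shares 75 exonic bases with Cers2 on the opposite strand, and the strand setting of the counting is not given in the sources used here.

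Cbx1 rose most of the 9. Its KO libraries had 3210.1, 3546 and 2903 normalised counts and its WT libraries 1838, 1884 and 1747, a 1.77-fold difference with no overlap (log2FC 0.82, SE 0.10, FDR 1.12e-15). Cbx3, for HP1 gamma, had 6028, 6497 and 5549 in KO and 4295, 4110.2 and 4103 in WT libraries (log2FC 0.53, SE 0.074, FDR 4.22e-11). Cbx5, for HP1 alpha, had 10870.5, 10146 and 9983 and 8341, 8532 and 8424 (log2FC 0.29, SE 0.054, FDR 8.85e-07). In each of the 3 HP1 genes the lowest KO library lay above the highest WT library.

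Morc3 went from 1868, 2083 and 1774 normalised counts in WT to 2916, 3060.3 and 2737 in KO libraries at D7 (log2FC 0.61, SE 0.068, FDR 9.34e-17), and Smarcad1 from 2249, 2804 and 2355 to 3923, 4099 and 3775 (log2FC 0.67, SE 0.080, FDR 4.57e-15). Both were separated between genotypes. Chd4 had 21657, 21823 and 20739.9 in KO and 19495, 17971 and 19074 in WT libraries, which did not overlap either, but it was not called (log2FC 0.18, SE 0.10, FDR 0.164, 95% interval -0.012 to 0.38). When only the D7 libraries were fitted, Chd4 was called (log2FC 0.22, FDR 1.66e-04).

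Some marker sums also differed between genotypes, and others overlapped. At D7 the sums of 6 epithelial markers overlapped (58000 to 60763 in KO and 58499 to 63475 in WT), with 1 of 6 higher. Those of 5 trophectoderm and primitive endoderm markers overlapped too (721 to 800 in KO and 535 to 825 in WT), with 1 of 5 higher. The summed normalised counts of 10 proliferation genes were 75784 to 82641 in KO and 53934 to 58718 in WT libraries at D7, with 7 of 10 genes higher at FDR < 0.05, and 54071 to 56171 against 38739 to 47054 at D5, also with 7 of 10 higher. The sums of 10 pluripotency markers were 32837 to 41141 in KO and 8177 to 12563 in WT libraries at D7, with all 10 higher, and 3575 to 5490.1 against 1646 to 1995 at D5, with 9 of 10 higher. Fibroblast marker sums overlapped at D7 (23064 to 42587 in KO and 35960.2 to 49264 in WT), with 1 of 10 higher and 5 of 10 lower. Fn1 was the higher one (mean 17014 against 11590), and it was at 29387 in WT ESCs. The means of the other fibroblast markers were lower in KO, with Col1a1 at 5173 against 12313 and Col3a1 at 3269 against 6625. The sums of 6 endothelial markers were 3753 to 3781 in KO and 1538 to 1941 in WT libraries at D7, with 2 of 6 higher. Tie1 (mean 2691 against 922) and Pecam1 (603 against 177) rose most, and Pecam1 was at 1372 in WT ESCs. Tek alone was lower in KO (424 against 634). The sums of 6 macrophage markers were 488 to 521 and 301 to 400.2, with none called. Cd68 (463 against 298) held most of that sum, and the means of the other macrophage markers were lower in KO. No pluripotency or proliferation marker was at 0 in a D5 or D7 group. Their part in the result was not tested.

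The position of each library between WT MEFs (0%) and WT ESCs (100%) on the log2 scale was computed for the 5 genes that differ more than 2-fold between these groups. At D7 Trim28 stood at -2.14% ± 1.52 in WT and 21.8% ± 4.98 in KO cells (SD, n = 3 each). Cbx1 went from -12.2% ± 2.30 to 21.7% ± 5.99 and Setdb1 from 39.1% ± 5.78 to 62.2% ± 4.77. Morc3 (26.6% ± 5.87 and 56.7% ± 4.01) and Smarcad1 (28.1% ± 8.22 and 61.3% ± 2.91) were, like Setdb1, past the middle in KO cells. WT cells at D7 lay at or under the MEF level for Trim28 and Cbx1 but above it for the other 3 genes.

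**Figure D3:**
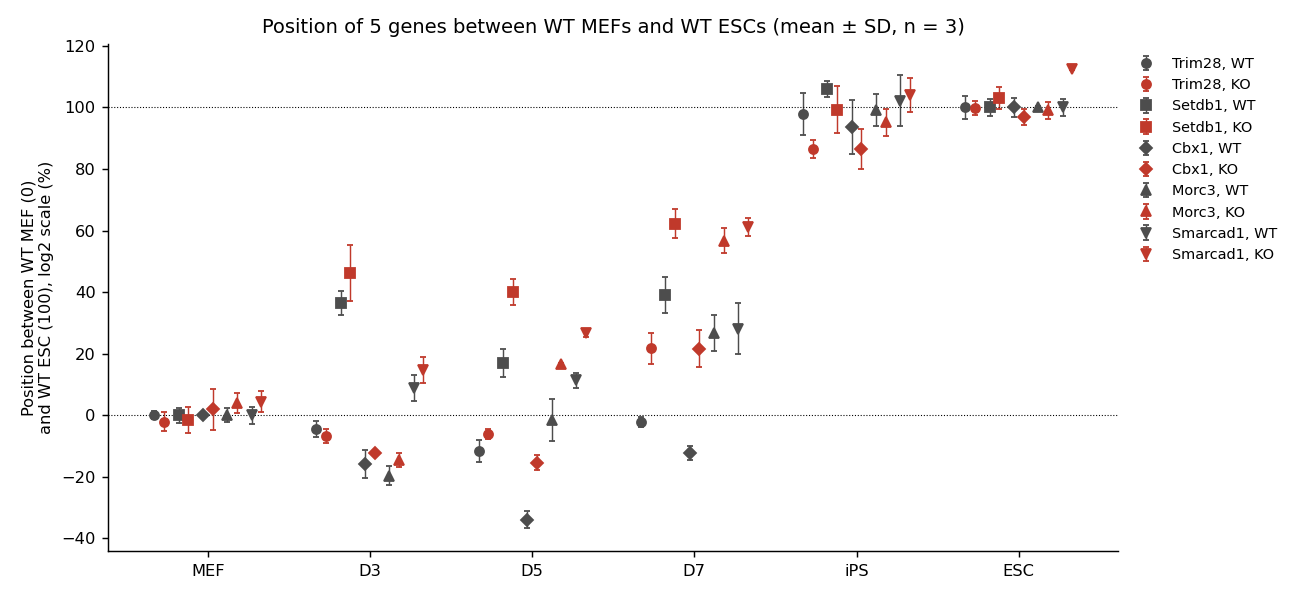
Position of Trim28, Setdb1, Cbx1, Morc3 and Smarcad1 between the WT MEF mean (0) and the WT ESC mean (100) on the log2 scale (y axis) in the 6 stages (x axis), WT in grey and KO in red, mean ± SD of 3 libraries. At D7 each gene stood higher in KO than in WT cells, and WT Cbx1 was lowest at D5, at -33.9% ± 2.71.

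In iPS clones 1 of the 9 genes was called, Trim28, lower in KO (16.3% of genes were called, and 6.63% were lower). The KO clones had 44880.4, 48677 and 48156 normalised counts and the WT clones 49733, 59129 and 59343, with no overlap, as in 19.6% of all genes, and the highest KO clone close below the lowest WT clone (log2FC -0.25, SE 0.063, FDR 0.00152). When iPS libraries were fitted alone, the call was lost (log2FC -0.27, FDR 0.272). Cbx1 was not called in the fit of all groups (log2FC -0.18, SE 0.093, FDR 0.19), but was without iPS KO replicate 3 (FDR 0.0386) or iPS WT replicate 1 (FDR 0.0147). Of 5 trophectoderm and primitive endoderm markers tested, 3 were higher in KO iPS cells, as were 3 of 6 epithelial markers. The summed trophectoderm and endoderm markers were 173, 185 and 697 in the KO clones and 107, 158 and 224 in the WT clones, so 1 KO clone lay far above the rest. The epithelial sums overlapped as well (11565 to 22052 in KO and 9881 to 18687 in WT). The part of these markers in the result was not tested. The median log2FC of the 9 was -0.083, against 0.024 over all genes.

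In ESCs Cbx5 (log2FC 0.17, SE 0.053, FDR 0.0185) and Smarcad1 (log2FC 0.26, SE 0.078, FDR 0.0158) were higher in KO, 2 of the 9, where 10.1% of genes were called and 5.82% were higher. The KO ESCs were cloned and the methods do not say that the WT ESCs were, so genotype and cloning cannot be told apart here. The p-values measure only the spread between these libraries. Smarcad1 had 8123, 8200.0 and 8091 normalised counts in the KO libraries and 6566, 7071 and 6781 in the WT libraries. Cbx5 had 13716, 12955 and 12560.1 and 10789.6, 11859 and 12148. Neither overlapped between genotypes, as in 33.3% of all genes. Both calls were lost without ESC KO replicate 2 (FDR 0.0544 for Cbx5 and 0.0718 for Smarcad1) and without ESC WT replicate 1 (0.207 and 0.107), that of Cbx5 also without ESC KO replicate 1 (0.131) or with ESC libraries fitted alone (0.1), and that of Smarcad1 without ESC KO replicate 3 (0.0507). The summed proliferation genes were 125615 to 127537 in KO and 110647 to 115782 in WT ESC libraries, with 1 of 10 higher and 1 lower, and their part was not tested either. Atf7ip was not called (log2FC 0.26, SE 0.13, FDR 0.19) but was with ESC libraries fitted alone (FDR 0.0332). Trim28 was not called (log2FC -0.0052, SE 0.063, FDR 0.981, 95% interval -0.13 to 0.12).

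The difference between KO effects at 2 stages was tested as an interaction contrast. The effect at D7 exceeded that at D3 in 5 of the 9 genes (13.0% of 17694 genes were called, and 5.82% in this direction), by 0.73 for Cbx1, 0.56 for Trim28, 0.55 for Smarcad1, 0.50 for Morc3 and 0.35 for Cbx3 on the log2 scale. The call of Cbx3 was lost without D3 WT replicate 2 (FDR 0.0732) or D7 KO replicate 2 (FDR 0.0665). With those stages alone, Cbx5 (FDR 0.012) and Chd4 (FDR 0.0244) were called too, as was Setdb1 without D3 KO replicate 1 (FDR 0.0341). The effect at D7 exceeded that in iPS cells in 7 of the 9, all but Atf7ip and Chd4 (21.9% of genes were called, and 9.76% in this direction), most in Cbx1 (log2 difference 1.00, FDR 1.24e-11) and Trim28 (0.76, FDR 8.76e-15). Cbx5 (0.24) was lost with those stages alone (FDR 0.0891), without D7 KO replicate 1 (FDR 0.0559) or without iPS KO replicate 3 (FDR 0.0547). Chd4, not called (log2FC 0.34, SE 0.14, FDR 0.0682), was called with those stages alone (FDR 0.0099), without iPS WT replicate 2 (FDR 0.0398), with edgeR (FDR 0.0349) and with TMM size factors (FDR 0.0287). Both contrasts use the same D7 libraries. Between iPS cells and ESCs none was called by DESeq2 or edgeR, where DESeq2 called 1.47% of genes at FDR < 0.05. In DESeq2, 2 genes, Trim28 and Smarcad1, had an unadjusted p under 0.05, for which the share of all genes was not computed. Trim28 was called without iPS WT replicate 1 (DESeq2 FDR 0.00748).

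The 3 HP1 genes were also compared with each other per kb of merged exons, without the Cbx3 pseudogenes described below. Their summed level in WT cells was 2414, 2413 and 2367 normalised counts per kb in the MEF libraries, 1600.1, 1574 and 1552 at D5 and 5515, 5522 and 5236 in ESCs. Cbx1 made up 21.3%, 21.9% and 22.3% of that sum in WT MEFs and 52.7%, 51.1% and 50.1% in WT ESCs, the smallest share in MEFs and the largest in ESCs with these lengths. At D7 the summed level was 2964, 3041 and 2714 in KO and 2073, 2074 and 2029 in WT libraries.

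Within the sum, Cbx1 held 25.3%, 27.3% and 25.03% in the KO libraries at D7 and 20.7%, 21.3% and 20.1% in the WT libraries, while Cbx5 held 40.7%, 37.1% and 40.8% and 44.7%, 45.7% and 46.1%. Neither share overlapped between genotypes, and that of Cbx3 did. With 3 against 3 libraries the exact permutation test cannot go below p = 0.1, which it reached for the shares of Cbx1 and Cbx5 at D5 and D7 (two-sided exact, 0.45 after Benjamini-Hochberg adjustment over 18 comparisons). Using the length of the longest transcript, the Cbx1 share was 24.3% in WT MEFs and 55.0% in WT ESCs, and Cbx5, not Cbx1, was then the smallest in WT MEFs (903 against 940.1 per kb).

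**Figure D4:**
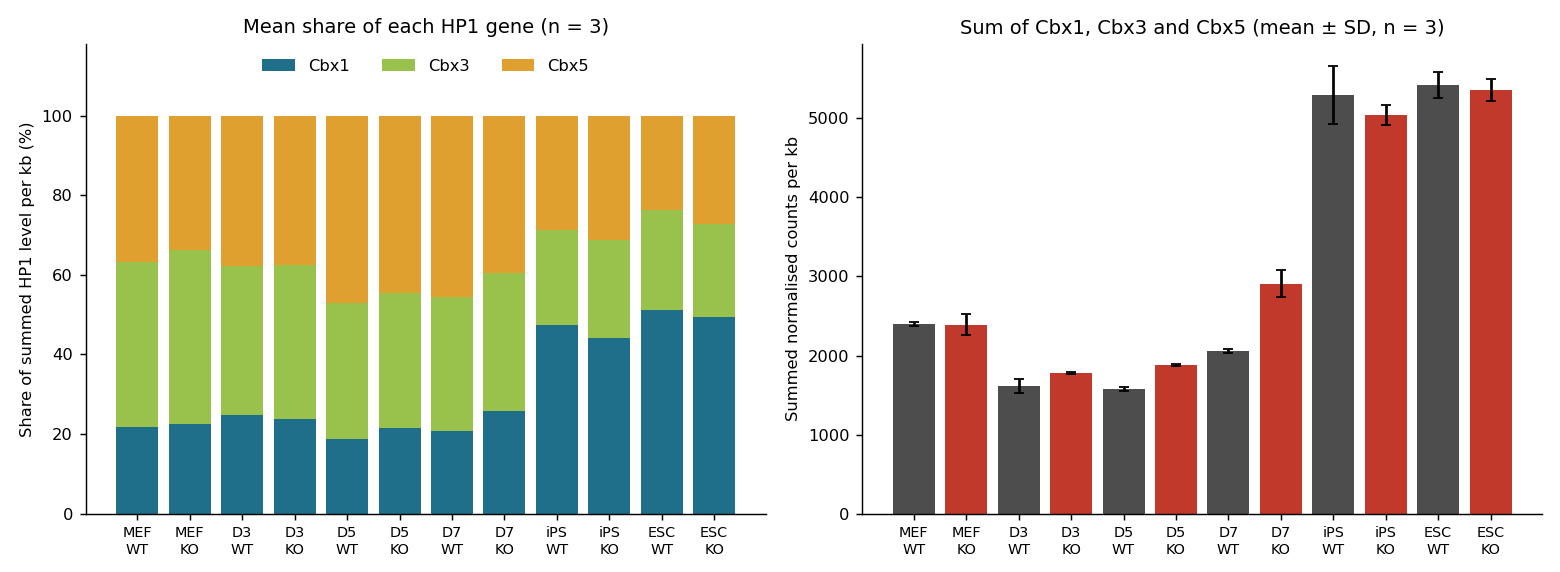
Left, mean share (%) of Cbx1, Cbx3 and Cbx5 in their summed level per kb for each of the 12 groups; right, the summed level (normalised counts per kb, mean ± SD, n = 3; WT grey, KO red). The Cbx1 share was highest in ESCs and iPS cells, and the D7 KO sum lay above the D7 WT sum.

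Levels of Cbx3 carry a further uncertainty. Pseudogenes were sought only by names formed from the symbol of each gene, so copies of the other genes under other names were not looked for. By this rule only Cbx3 had any. It has 8 annotated processed pseudogenes so named, near copies of its transcript, and 7 of them were in the table. Their summed mean was 5196 normalised counts in KO and 3703 in WT cells at D7, and it was 86.2% to 100.2% of the Cbx3 mean over the 12 groups. The genes most like Cbx3 over the 36 libraries were Cbx3-ps6 and Cbx3-ps7. Cbx3-ps2 and Cbx3-ps5, chosen after their values were seen, had equal means in WT cells at D5 and at D7, 100.3 for both at D7. How reads were split between these copies was not given in the sources used here, so the share of Cbx3 reads that landed on them is unknown.

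Positions in GRCm38 and exons were taken from GENCODE M21 for all 9 genes. Trim28 lies on chromosome 7 from 12999114 to 13031035 (plus strand, 11 merged exons), Setdb1 on chromosome 3 from 95323525 to 95357202 (minus strand, 21 merged exons) and Cbx1 on chromosome 11 from 96789127 to 96808640 (plus strand, 6 merged exons). Cbx3 (51470360 to 51483704), Smarcad1 (65042583 to 65116061), Chd4 (125095981 to 125130591) and Atf7ip (136506167 to 136610862) all lie on the plus strand of chromosome 6. Cbx5 is on the minus strand of chromosome 15 (103191544 to 103239816) and Morc3 on the plus strand of chromosome 16 (93832121 to 93876073).

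Other genes of the pathway were read from a list of 65 symbols in 8 groups, in which Tasor and Fam208a name the same gene. Of these symbols, 62 were in the table. In KO against WT cells, none was called in MEFs and 1 was higher at D3, Zfp266 itself, a call that edgeR did not make. At D5, 13 were higher and 1 lower, at D7 30 higher and 6 lower, in iPS cells 5 higher and 8 lower, and in ESCs 11 higher and 2 lower, where edgeR called 8 in all. The median log2FC of the 62 was 0.18 at D7 and -0.027 in iPS cells. Of all genes tested, 0.0428% were called in MEFs, 0.493% at D3, 7.15% at D5, 29.4% at D7, 16.3% in iPS cells and 10.1% in ESCs.

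At D7 the SUMO pathway, whose modification of TRIM28 controls its partners, had 8 of 14 genes higher and none lower, and the NuRD partners of Chd4 had 6 of 13 higher and 1 lower. Of all genes, 29.4% were called at D7 and 13.3% were higher. Rbbp4, a histone chaperone of NuRD, was at 6106 ± 403 against 4054 ± 229 normalised counts in KO and WT (mean ± SD, n = 3; log2FC 0.59, SE 0.061, FDR 1.55e-19). DNA methylation maintenance and silencing partners had 5 of 7 higher. At D5 that group had 3 of 7 higher, where 7.15% of all genes were called and 4.72% were higher. It was led by Hells, a chromatin remodeller needed for DNA methylation (2554 ± 133 against 1906 ± 185; log2FC 0.42, SE 0.086, FDR 7.52e-05), and Uhrf1, which recruits the maintenance methyltransferase (3684 ± 301 against 2420.4 ± 437; log2FC 0.61, SE 0.12, FDR 9.07e-05).

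H3.3 chaperones and relatives of the 9 genes had 4 of 6 higher and 1 lower at D7, where 29.4% of all genes were called and 13.3% were higher. Atrx, which deposits histone H3.3 with DAXX, was at 7422 ± 147 against 4012 ± 338 (log2FC 0.89, SE 0.081, FDR 2.11e-25), and Morc1, a relative of Morc3 that acts in germ cell silencing of transposons, at 513 ± 129 against 103 ± 18.8 (log2FC 2.31, SE 0.22, FDR 3.13e-23). Morc4 was lower in KO at D5 (log2FC -0.62) and higher in iPS cells (0.84). The histone H3K9 methyltransferases other than Setdb1 had 1 of 7 higher and 1 lower at D7, the HUSH complex and MORC2 list 1 higher and 2 lower of 4, the TIF1 relatives of Trim28 2 higher and 1 lower of 3, and the KRAB zinc finger genes with described targets 3 higher and none lower of 8.

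In iPS cells and in ESCs, Sumo3, a SUMO modifier, was lower in KO (log2FC -0.34 and -0.29). Zfp266 was lower in KO iPS cells (-0.39). Zfp809, a KRAB zinc finger gene, was higher in KO ESCs (922 ± 38.5 against 683 ± 23.0; log2FC 0.43, SE 0.087, FDR 6.69e-05), and Suv39h1, an H3K9 methyltransferase, was lower (289.9 ± 43.4 against 462 ± 30.2; log2FC -0.67, SE 0.15, FDR 5.39e-04).

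From WT MEFs to WT ESCs, 39 of the 62 were higher and 19 lower, with a median log2FC of 0.60. Of all genes, 79.3% were called in this comparison, 40.0% higher and 39.4% lower. KRAB zinc finger genes (7 of 8 higher, and 1, Zfp266, lower) and DNA methylation and silencing partners (5 of 7 higher, 1 lower) leaned upward. H3K9 methyltransferases (3 higher and 4 lower of 7) and NuRD partners (5 higher and 5 lower of 13) were split. Mbd2, the methyl-CpG-binding subunit of NuRD, was at 353 ± 14.8 against 2065 ± 37.9 in ESCs and MEFs (log2FC -2.55). Hells (13320.2 ± 362 against 1203 ± 48.4) and Tasor, of the HUSH complex (5125 ± 117 against 821 ± 56.5), went the other way. Dnmt3l (log2FC 10.29), Morc1 (9.63), Zfp819 (7.81), Atf7ip2 (6.56) and Dnmt3b (6.31) changed most, and the first 4 had mean levels under 10 normalised counts in MEFs.

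The 9 genes varied together to differing degrees. Over the 36 libraries, on log2 normalised counts plus 1, Pearson's r was 0.99 for Trim28 and Cbx1 and 0.97 for Morc3 and Smarcad1, but 0.59 for Atf7ip and Chd4, and -0.14 for Trim28 and Chd4, a pair whose Spearman's rho was 0.24. Libraries of 1 stage are not independent points, so these values are descriptions. Among 14628 other genes, those with the most similar pattern to Trim28 were 1700030C10Rik, Gm48171 and Gm48185 (r = 0.99 for each), but by Spearman's rho (0.86 for each) they ranked 359 to 363. The nearest gene was Fancm for Setdb1 (r = 0.99), Rest for Cbx1 (0.99), Cbx3-ps6 for Cbx3 (0.99), Bicral for Cbx5 (0.98), Trim6 for Morc3 (0.996) and Platr7 for Smarcad1 (0.99). By rho, Fancm and Cbx3-ps6 were also first, while Bicral ranked 5, Trim6 16, Rest 50 and Platr7 182. Cbx3-ps6 is a near copy of Cbx3 that may share its reads. The first gene for Cbx3 that is not such a copy was Rbbp4 (r = 0.97, rank 3 by r and by rho). For Atf7ip and Chd4 it was less close, with Mtor at 0.92 and Dyrk1a at 0.86, both also first by rho.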

How the data were processed

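Bulk messenger RNA libraries (stranded kit) of 36 samples were used. Per the labels and the methods of the study, the authors trimmed reads with cutadapt, mapped them with STAR to GRCm38.p6 and made the deposited gene counts. The strand setting and annotation release of the counting are not given in the sources used here. The authors also deposited a normalised table, a signal in which each count is divided by the DESeq2 size factor of its library. Recomputed size factors gave the same values to a relative difference of 4.98e-15. Gene symbols came from the deposited tables of the authors' own comparisons, whose fold changes and p-values were not used, nor was a log matrix corrected for preparation batches, which the labels do not name.

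Counts of all 21442 genes were fitted with DESeq2 1.42.0 (R 4.3.3) as 1 factor of 12 groups, with Wald tests, Benjamini-Hochberg adjustment and default independent filtering. FDR < 0.05 was called, and log2FC > |1|, the study's threshold, was counted beside it. Differences between KO effects were contrasts of that fit. Alternatives were edgeR 4.0.16 (quasi-likelihood), TMM size factors, no independent filtering, a filter of at least 10 counts in at least 3 libraries, the compared groups alone, a replicate block, and each library left out in turn. Fits were tested on simulated data. Shares were compared by exact permutation tests (scipy 1.17.1), and gene positions and lengths came from GENCODE M21 (21417 IDs matched) and promoter windows from RefSeq (all 9 genes matched, with 13 windows).

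Deviations from group means correlated between KO and WT libraries of the same number at 0.101 to 0.456 at D3 and 0.172 to 0.392 at D7, over 0.1 in 3 of 3 pairs at each, so the numbers were taken to pair libraries there. At D3, however, WT replicate 2 correlated at 0.126 with KO replicate 3, above its 0.101 with KO replicate 2. The 9 genes, marker lists and pathway lists were chosen with earlier results of these data known. All 9 genes were named. Other genes were named as the 3 with the lowest FDR over the pathway lists in each comparison (and the 5 with the largest change between WT ESCs and MEFs), and as the most similar by r among genes with a mean of at least 50 normalised counts (3 for Trim28 and 1 for each other gene). Cbx3 pseudogenes were added after their values were seen.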

Additional observations from a re-analysis of the deposited data

Results flagged for a closer look

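The KO effect differed between D7 and D3 by the test of the difference itself in 5 of the 9 genes (DESeq2 contrast, FDR < 0.05). The effect was larger at D7 by 0.56 for Trim28, 0.73 for Cbx1, 0.35 for Cbx3, 0.50 for Morc3 and 0.55 for Smarcad1 on the log2 scale. Between D7 and iPS cells it differed in 7 of the 9, by 0.76 for Trim28, 0.38 for Setdb1, 1.00 for Cbx1, 0.55 for Cbx3, 0.24 for Cbx5, 0.69 for Morc3 and 0.64 for Smarcad1, again larger at D7. Both contrasts share the 6 D7 libraries, and iPS libraries were clones while D3 and D7 libraries were populations.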

How the results depend on the processing

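The lowest group mean of the 9 genes was 998 normalised counts. Without independent filtering and with the filter on low counts, all 64 calls over the 9 genes and 15 comparisons were kept. The replicate block changed no call of these either. At D5 the same-number correlations were 0.0897 to 0.268, with 2 pairs over 0.1. All of them lay above the highest correlation between different numbers at D5 (0.016), so the numbers may pair libraries at D5 as well. At MEF, iPS and ESC stages at most 1 of 3 pairs was over 0.1, so the numbers were taken as only names at those stages. The count of the 9 genes called was then 0 in MEFs and at D3, 6 at D5, 7 at D7, 1 in iPS cells and 2 in ESCs with the replicate block, as without it. Of the 64 calls, edgeR lost 3, TMM size factors 1 and the compared groups fitted alone 4, while edgeR gained 2 calls, TMM size factors 2 and the compared groups alone 7. With the compared groups alone, the count was 0 for KO against WT in iPS cells and 0 for WT ESCs against iPS cells. With edgeR, 0 of the pathway genes were called at D3 and 8 in ESCs. With the longest transcript as length, the Cbx1 share was 24.3% in WT MEFs and 55.0% in WT ESCs. Leaving out 1 library at a time gave counts of 1 to 2 in iPS cells, 0 to 2 in ESCs, 0 to 1 for WT ESCs against iPS cells and 0 to 1 for the difference between KO effects in iPS cells and ESCs. The sign turned in genes that were not called, namely for Setdb1 in KO against WT MEFs with edgeR (0.0013) and TMM size factors (0.0013), for Chd4 in iPS cells against D7 with these groups alone (-0.012) and for Atf7ip in the KO effect at D7 minus iPS with the replicate block (-0.0029). The log2FC without 1 library spanned 0 in other genes that were not called. In KO against WT in MEF, it was -0.050 to 0.00094 for Setdb1, -0.046 to 0.11 for Cbx1, -0.0033 to 0.13 for Cbx3, -0.29 to 0.043 for Atf7ip and -0.23 to 0.022 for Chd4. In KO against WT in D3, it was -0.030 to 0.034 for Chd4. In KO against WT in D5, it was -0.027 to 0.044 for Atf7ip. In KO against WT in iPS, it was -0.057 to 0.021 for Cbx3, -0.0080 to 0.11 for Cbx5, -0.0034 to 0.21 for Atf7ip and -0.045 to 0.12 for Smarcad1. In KO against WT in ESC, it was -0.032 to 0.042 for Trim28 and -0.042 to 0.013 for Morc3. In D5 against D3, it was -0.065 to 0.035 for Chd4. In D7 against D5, it was -0.060 to 0.074 for Atf7ip. In iPS against D7, it was -0.052 to 0.072 for Chd4. In ESC against iPS, it was -0.038 to 0.083 for Trim28, -0.045 to 0.043 for Morc3 and -0.13 to 0.035 for Smarcad1. In the KO effect D7 minus iPS, it was -0.083 to 0.13 for Atf7ip. The cause was not tested for any of these.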
